A study of Mus musculus with 38 samples.

Results

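CREB sites of isolated mouse hepatocytes that appeared with glucagon were chosen by presence: a site of the glucagon CREB list was taken when it shared at least 1 base with a site of the glucagon plus corticosterone CREB list and none with a site of the untreated list. Of the 28229 sites of the glucagon list, 3447 met this definition (12.2%) and are called gained sites. The same list held 19530 sites found in all 3 hepatocyte CREB lists, 3895 sites found in the glucagon list only and 1357 shared with the untreated list but not with the corticosterone list. The 11 lists used held 278566 regions in all. Because calls in the 3 hepatocyte CREB lists chose the members, the densities, widths and ranks of the gained sites in those lists are a description and were not tested.

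The data are chromatin immunoprecipitation with sequencing of hepatocytes, which make up most of the liver's mass, prepared from C57BL/6 mice by collagenase perfusion, and of whole liver of such mice. For total CREB, hepatocytes had received 10 nM glucagon for 1 h (2 samples), 10 nM glucagon and 1.7 uM corticosterone for 1 h (2 samples) or no hormone (1 sample), and the glucocorticoid receptor (GR) had been mapped after both hormones (2 samples). Liver had been taken from mice fasted for 24 h or fed, for CREB and for CREB phosphorylated at its activating serine (3 samples each), and from mice fed or fasted for 10 or 24 h, for acetylation of histone H3 at lysine 27 (H3K27ac, 3 samples each). Each group had 1 list made by the authors, with 1 value per site and none per library. There was thus no spread between replicates, no difference could be tested, and every comparison is between lists of sites. Read depth is unknown.

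Glucagon is the fasting hormone that raises cAMP in hepatocytes. Cyclic AMP activates protein kinase A, which phosphorylates CREB (cAMP response element binding protein) and thereby lets it recruit coactivators at genes of glucose production. Corticosterone, the glucocorticoid of rodents, acts through GR, a nuclear receptor that binds DNA and activates many of the same fasting genes. H3K27ac marks active promoters and enhancers.

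Gained sites were mostly of modest density, and lay less often in acetylated chromatin or at CREB sites of liver than CREB sites present in all 3 lists. Over whole lists their share at GR sites was near that of the sites in all 3 lists, but among dense sites and at like width it was higher. GR sites overlapped 645 gained sites, or 18.7% (95% Wilson interval 17.4 to 20.0), against 17.3% of the sites in all 3 lists (16.7 to 17.8) and 15.4% of all glucagon sites. With each list cut to its upper 50% by density and the rule applied anew, the shares were 34.4% of 1433 sites and 19.8% of the sites in all 3 lists. With the 3 hepatocyte CREB lists cut to equal length by density they were 27.5% of 3669 sites and 16.5%. Both cuts also shorten the untreated list, so these sets are not subsets of the 3447 gained sites. They can hold sites that overlap a dropped untreated site. H3K27ac regions of 24 h fasted liver overlapped 889 gained sites, or 25.8% (24.4 to 27.3), against 64.1% of the sites in all 3 lists (63.4 to 64.7) and 50.5% of all glucagon sites. A CREB site of fasted or fed liver was met by 205 gained sites, or 5.95% (5.21 to 6.79), against 31.5% of the sites in all 3 lists (30.9 to 32.2) and 23.7% of all glucagon sites. Sites of the glucagon list only, which are also absent from the untreated list, were lower than the gained sites for GR, at 5.93% (5.23 to 6.72), and for H3K27ac, at 8.91% (8.05 to 9.84) in 24 h fasted liver. For liver CREB they stood at 5.39% (4.73 to 6.15), an interval that overlaps that of the gained sites. Intervals cover counting error only, and neighbouring sites are not independent.

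**Figure D1:**
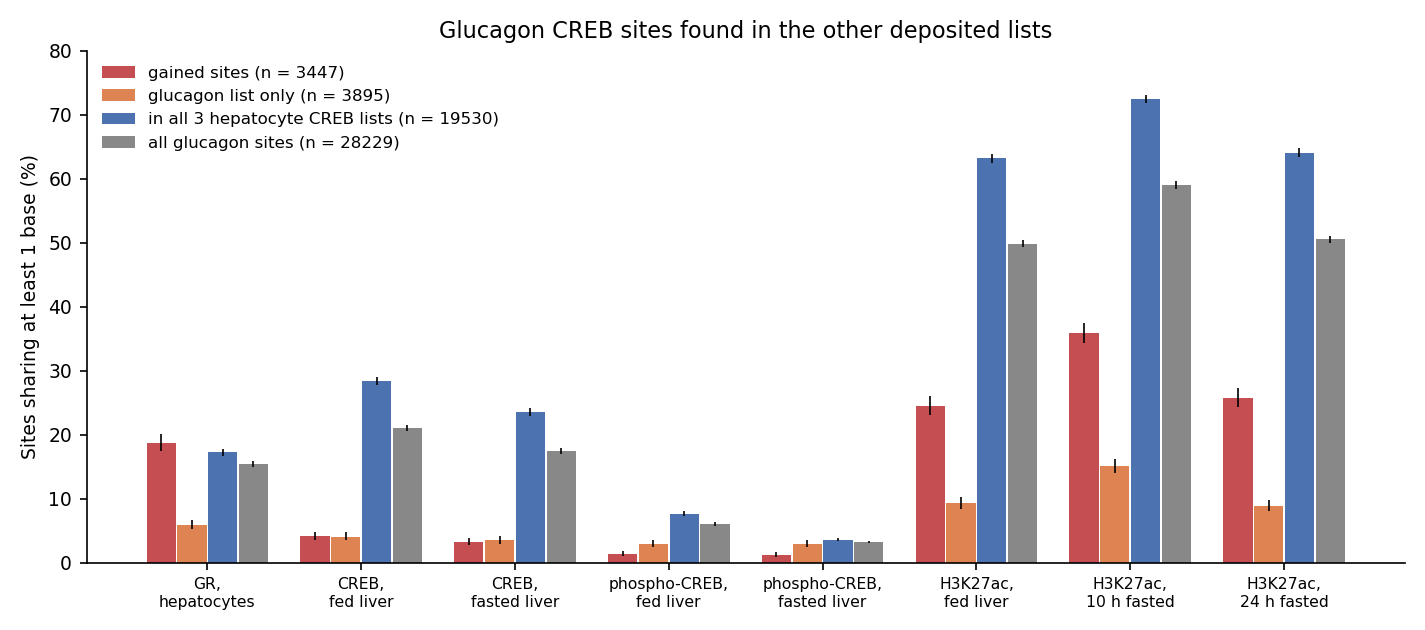
Share of CREB sites of the glucagon list that share at least 1 base with a site of each other list, in percent, by class of site, with 95% Wilson intervals as error bars. Gained sites stand at 18.7% for GR, close to the sites in all 3 lists, and at 24.6% to 35.9% for H3K27ac, below the sites in all 3 lists (63.2% to 72.5%) and above the sites of the glucagon list only (8.91% to 15.1%).

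The gained sites were spread over all 21 chromosomes of the lists. Their share of the glucagon sites of a chromosome ranged from 9.56% on chromosome 11 to 13.7% on chromosomes 1, 13 and 19. They measured 469 bp at the median, and the sites in all 3 lists 683 bp. The smallest width called, 252 bp, was that of 221 gained sites.

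Many gained sites had an untreated CREB site nearby that did not touch them. The median distance to the nearest one was 5867 bp, with quartiles of 1350 and 20400 bp. For sites of the glucagon list only, which are also absent from the untreated list, the median was 16642 bp. An untreated site lay within 500 bp of 465 gained sites (13.5%) and within 1000 bp of 724. At the other end, 315 gained sites (9.14%) were over 50000 bp from any untreated site. For 281 gained sites the partner, that is, the overlapping site of the corticosterone list, did overlap an untreated site, although the gained site itself did not.

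**Figure D2:**
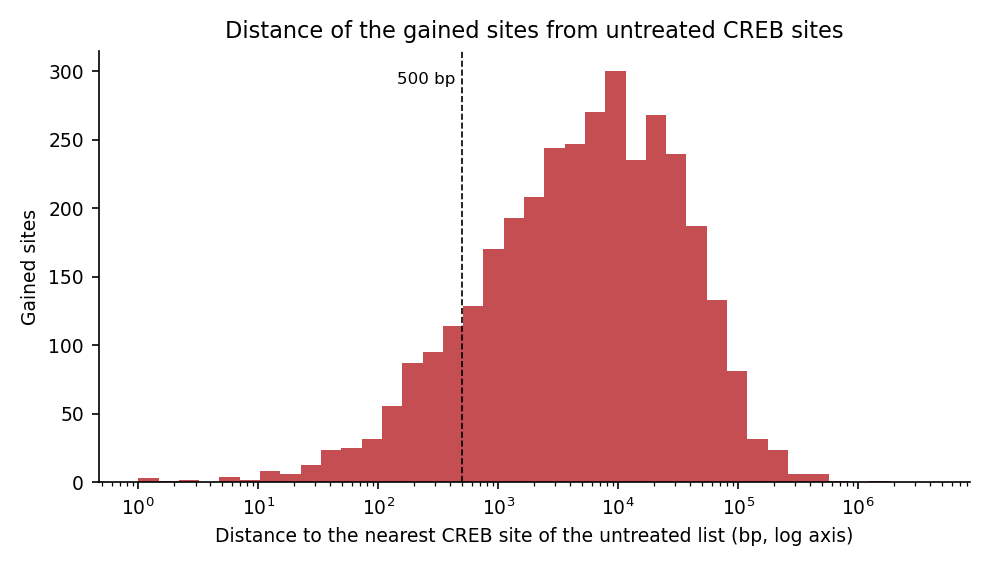
Number of gained sites by their distance in bp, on a log axis, to the nearest CREB site of the untreated list, with the dashed line at 500 bp. Most of the 3447 sites lie right of the line, with a median of 5867 bp, and 465 lie at or left of it.

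Few sites lay at the limits of the rule. The gained site with the shortest stretch in common with its partner, chr8:75867418-75867693 (mm9, as are all positions here), shared 1 bp with it and had a density of 6.50, the highest tag density within the site as the authors give it. The next shortest, chr1:111578754-111579109 and chr10:126416175-126416459, shared 3 bp and had densities of 3.09 and 4.33. Just outside the rule, sites in both hormone lists that touched an untreated site by 1, 2 and 3 bp were chr9:103266013-103266274, chr12:111975377-111975643 and chr11:51398863-51399193, with densities of 5.14, 2.78 and 8.86. In all, 9 gained sites shared under 10 bp with their partner, and 2300 lay wholly inside it. The authors' z-score, which scores the enrichment of a site, was below 8.67, the lowest of the untreated list, at 384 gained sites (11.1%). The untreated list was also the longest, with 47596 sites, and its name gives a single library paired with itself. The part of these differences between lists in the choice of sites was not tested.

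Gained sites ranked low in the glucagon list. Their median density of 8.35 corresponded to percentile 35.8 of the list, where 100 is the densest site, with quartiles at 21.1 and 54.1. Sites in all 3 lists had a median density of 13.4 and a median percentile of 63.1, and sites of the glucagon list only had 4.33 and 10.0. Gained sites thus lay between those classes. Only 53 gained sites (1.54%) fell in the densest 10% of the list, and 1014 (29.4%) in its denser 50%.

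In the corticosterone list the partners of the gained sites were centred near the middle. The 3447 sites met 3423 partner sites among 42090, and where a gained site met several the densest was taken. The median partner percentile was 55.4, with quartiles at 34.2 and 74.7, and 264 gained sites had a partner in the densest 10%. Partners of the sites in all 3 lists had a median percentile of 75.2. The lists differ in length, so percentiles of both lists are given side by side and show no change of binding. Of the 53 gained sites in the densest 10% of the glucagon list, 46 also had a partner in the densest 10% of the corticosterone list, and these were 17.4% of the 264. The less dense 50% of both lists held 1384 gained sites (40.2%). Spearman's rho between the density ranks in both lists was 0.60 over the 3447 gained sites and 0.81 over the sites in all 3 lists, given as a description, since sites share libraries and depth.

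**Figure D3:**
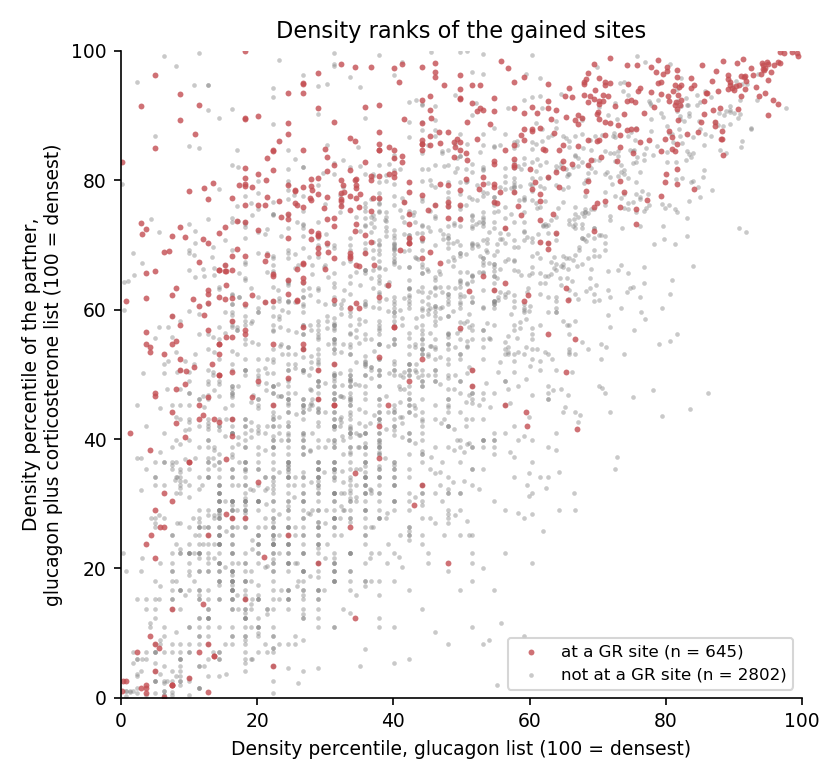
Density percentile of each gained site in the glucagon list (x axis) and of its partner in the glucagon plus corticosterone list (y axis), with 100 the densest, for 645 sites at a GR site in red and 2802 others in grey. The red points crowd the upper part of the plot, with a median partner percentile of 79.4 against 49.9 for the grey points.

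Gained sites at GR sites had the denser partners. They had a median percentile of 42.3 in the glucagon list and of 79.4 in the corticosterone list, whereas the other gained sites stood at 35.1 and 49.9. Among the sites in all 3 lists, those at GR had median percentiles of 78.4 and 90.4, and the others 60.2 and 71.7. Median width was 602 bp for gained sites at GR and 448 bp for those without.

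With the corticosterone list divided into 10 bins by density, bin 10 the densest, the share at GR was higher in the denser partner bins for both classes. In bin 10, 171 of 264 gained sites were at GR (64.8%, interval 58.8 to 70.3), against 41.1% of the sites in all 3 lists (39.6 to 42.6) and 42.5% of all glucagon sites with a partner in that bin. In bin 9 the shares were 39.4% (34.5 to 44.5) and 19.9% (18.7 to 21.2), and in bin 7 16.7% (13.6 to 20.5) and 6.41% (5.56 to 7.38). In each of bins 1 to 4 the gained sites stood lower, with intervals that overlap. Bin 2 gave 1.94% (0.758 to 4.89) against 6.77% (4.27 to 10.6), bin 3 4.97% against 5.75%, and bin 4 2.46% against 4.84%. Bin 1 stood above bin 2 in both classes, at 15.0% (10.2 to 21.5) and 23.7% (17.2 to 31.6).

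Divided likewise, the glucagon list showed the gained sites apart from the sites in all 3 lists in its dense bins. In bin 10, GR sites were met by 38 of 53 gained sites, or 71.7% (58.4 to 82.0), against 32.1% of the sites in all 3 lists (30.4 to 33.9) and 32.9% of all glucagon sites of that bin. In bin 9 the shares were 41.7% (33.6 to 50.2) and 26.4% (24.8 to 28.1), and in bin 8 32.0% (25.7 to 39.2) and 17.6% (16.2 to 19.1). From bin 2 to bin 6 the gained sites stood at 13.2% to 15.3% and the sites in all 3 lists at 9.31% to 12.5%. In bin 1, 27.2% of the 243 gained sites (22.0 to 33.1) and 28.2% of the sites in all 3 lists (23.5 to 33.4) lay at GR, against 13.2% of all glucagon sites of that bin. The gained sites of bin 1 had a median z-score of 10.3, 26.3% of them were of the smallest width, and 5.76% lay at a phospho-CREB site of liver (3.46 to 9.44), against 7.59% of the sites in all 3 lists (5.16 to 11.1) and 6.03% of all glucagon sites of that bin.

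**Figure D4:**
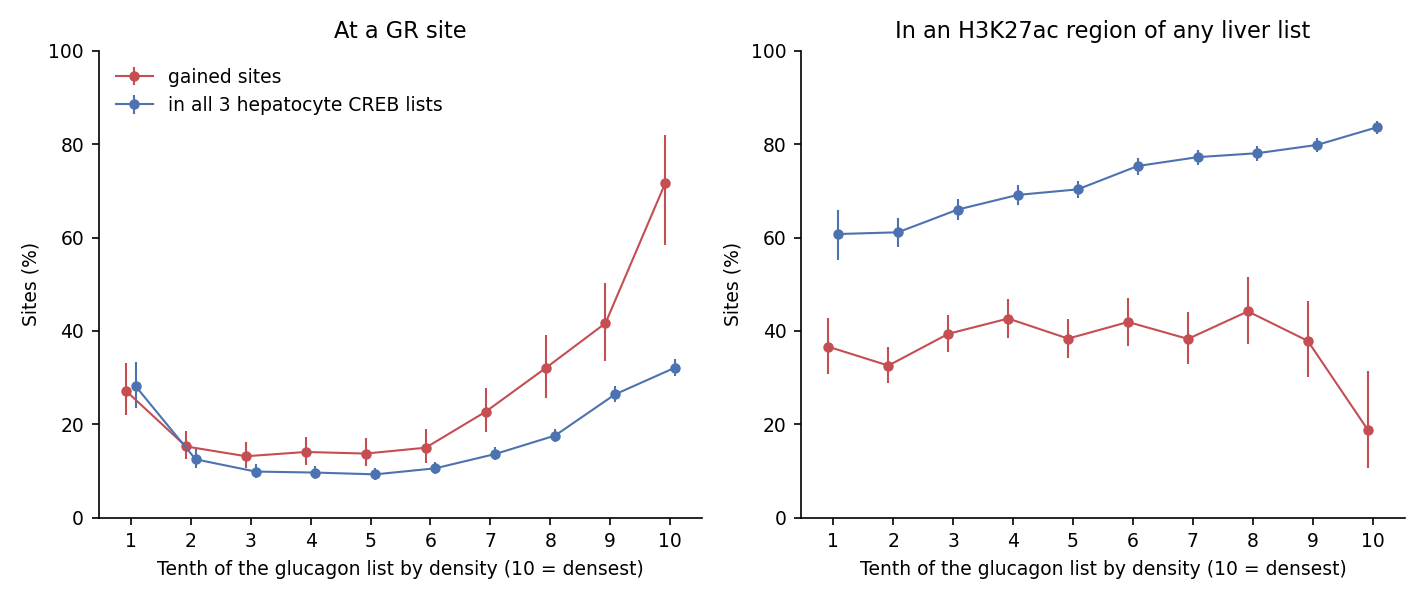
Percent of gained sites and of sites in all 3 hepatocyte CREB lists at a GR site (left) and in an H3K27ac region of any liver list (right), in 10 bins of the glucagon list by density, with 95% Wilson intervals. The gained sites reach 71.7% at GR in the densest bin, against 32.1%, and stand at 18.9% in H3K27ac there, against 83.6%.

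GR overlap was more frequent among wide sites in both classes, and the classes also differed at like width. Among sites of 800 bp and over, 51.6% of 192 gained sites (interval 44.5 to 58.5) and 26.8% of the sites in all 3 lists (25.8 to 27.9) were at GR. From 600 to under 800 bp the shares were 33.2% (29.8 to 36.8) and 17.0% (16.0 to 18.0), and from 400 to under 600 bp 15.6% (13.8 to 17.6) and 9.19% (8.38 to 10.1). Under 400 bp they were 8.85% (7.38 to 10.6) and 5.80% (4.93 to 6.80). In each of these 4 width ranges the intervals lay apart, with the gained sites higher.

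The GR sites at gained CREB sites ranked in the upper part of the GR list, as did those at CREB sites of all 3 lists. The 641 GR sites involved were 5.39% of the GR list, while 37.1% of the GR list lay at any glucagon CREB site. Their median percentile by density within the GR list was 72.5, against 78.0 for GR sites at CREB sites of all 3 lists, and 115 of them (17.9%) were in its densest 10%. The midpoint of the densest GR site was a median of 43 bp from that of the gained CREB site. For sites in all 3 lists the median was 58 bp. Since only overlapping sites were measured, short distances follow from the selection and the widths of the sites. Among corticosterone-list sites absent from the untreated list, 18.1% of those with a glucagon site were at GR (578 of 3189), and 4.60% of those without one (614 of 13352). The share over the whole corticosterone list was not computed. Nor were these sets compared at like density, although the share at GR differed between density bins of that list.

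The 10 densest gained sites had densities of 65.6 to 172 in the glucagon list, where they ranked 173 to 1162, and their partners ranked 108 to 3745 in the corticosterone list. At 9 of the 10 a GR site was present, and 1 lay in an H3K27ac region. The densest, chr19:53495224-53496249, had a density of 172 (rank 173) in the glucagon list and 245 (rank 322) in the corticosterone list. Its GR site ranked 283 of 11892, and no list from liver held a region there. The nearest untreated CREB site was 16069 bp away.

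At chr6:149118837-149119947 the density was 162 (rank 200) and that of the partner 326 (rank 169), with a GR site of rank 178. This site is an example of one close to an untreated site, at 304 bp. At chr7:107827767-107828913 the density was 119 (rank 403), the partner had 383 (rank 108) and the GR site ranked 77. The site chr15:95734376-95735595 had 89.7 (rank 727), with a partner of 331 (rank 163) and a GR site of rank 320. None of the 3 lay in a region of a liver list. Together with the chr19 site and the chr2 site described next, they had the best mean percentile over both hormone lists.

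At chr2:65064300-65065867 the density was 78.0 (rank 918), the partner had 380 (rank 109), and the GR site, with a density of 93.5, ranked 37 of its list. It was the only one of the 10 densest in an H3K27ac region, which was listed at 10 h (percentile 80.4 of that list) and at 24 h of fasting (percentile 70.9) and not in fed liver. A CREB site of fasted liver (percentile 57.4) was also listed there, and none of fed liver. The next densest gained sites with both GR and H3K27ac were chr10:21168275-21169394 and chr4:120835692-120836733, at densities of 57.5 and 53.2 and with GR sites of rank 570 and 609.

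The others of the 10 were alike in having nothing listed in liver, with 1 exception. The sites chr19:43605179-43606157, chr5:32251505-32252490 and chr6:108531658-108532580 had densities of 79.5, 75.2 and 65.6, with GR sites of rank 498, 467 and 728. At chr3:99992361-99993400 the density was 74.3, the GR site was of only middle rank, 5513, and the partner ranked 3486. The exception was chr13:118847333-118847949, with a density of 95.5 (rank 651). No GR site overlapped it, its partner ranked 3745, and it was in the CREB list (percentile 53.7) and the phospho-CREB list (percentile 63.5) of fed liver. It was 160588 bp from the nearest untreated site.

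By GR and H3K27ac together, 224 gained sites (6.50%) had both, 421 (12.2%) had GR only, 1104 (32.0%) had H3K27ac of at least 1 liver list only, and 1698 (49.3%) had neither. Of all 28229 glucagon sites, 4350 (15.4%) were at GR, 17275 (61.2%) were in H3K27ac of at least 1 liver list, and 2769 had both. In none of the 8 other lists were 1655 gained sites (48.0%, interval 46.3 to 49.7), against 17.2% of the sites in all 3 lists (16.6 to 17.7). That share was not computed over all glucagon sites or over the sites of the glucagon list only. It therefore cannot be read as particular to the gained sites. After the chr13 site, the densest with neither GR nor H3K27ac were chr6:94110849-94111711, with a density of 48.1 and a partner of rank 1521, and chr4:11841377-11842252, with 43.0 and a partner of rank 5010. Median partner percentiles were 79.0 with both marks and 79.5 with GR only, against 53.1 with H3K27ac only and 47.5 with neither. Partner ranks thus differed more by GR than by acetylation.

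H3K27ac of at least 1 of the 3 liver lists was found at 38.5% of the gained sites (1328 sites, interval 36.9 to 40.2), against 74.9% of the sites in all 3 lists (74.3 to 75.5), 15.8% of the sites of the glucagon list only (14.7 to 17.0) and 61.2% of all glucagon sites. By state, the gained sites were in H3K27ac regions of fed liver at 24.6% (847 sites), of 10 h fasted liver at 35.9% (1236) and of 24 h fasted liver at 25.8%, and all glucagon sites at 49.8%, 59% and 50.5%. In bulk liver, fewer cells with a mark and less of it per cell cannot be told apart.

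The lower share in acetylated regions was seen along most of the glucagon list. H3K27ac of any liver list was at 32.6% to 44.2% of the gained sites in bins 2 to 9, against 61.1% to 79.9% of the sites in all 3 lists and 37.7% to 77.9% of all glucagon sites in these bins. In bin 10 it was at 18.9% (10 of 53 sites, interval 10.6 to 31.4), against 83.6% of the sites in all 3 lists (82.2 to 85.0) and 82.4% of all glucagon sites of that bin. For 24 h fasted liver alone, bin 10 stood at 15.1% of the gained sites (8 of 53) and 75.9% of all its glucagon sites. Bin 1 went the other way against all glucagon sites, with 36.6% of the gained sites (30.8 to 42.8) in any list, against 60.8% of the sites in all 3 lists (55.3 to 66.0) and 16% of all glucagon sites of that bin. There, 24 h fasted liver gave 9.88% of the gained sites (24 of 243) and 4.8% of all glucagon sites.

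Distance told the same. Within 5000 bp of an H3K27ac region lay 57.7% of the gained sites (56.1 to 59.4) and 82.3% of the sites in all 3 lists (81.8 to 82.8). In the densest 10% these shares were 50.9% of 53 gained sites (37.9 to 63.9) and 88.2% of the sites in all 3 lists (86.9 to 89.3).

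The densest gained site with acetylation and no GR, chr9:79578584-79579359 (density 47.0), was in the 24 h fasted H3K27ac list alone, at percentile 24.0, and in both CREB lists of liver. The next, chr6:108398243-108399016 (density 40.8), lay in regions of all 3 H3K27ac lists, at percentiles 92.6 in fed, 98.7 in 10 h fasted and 91.5 in 24 h fasted liver. At chrX:65616431-65617026 (density 40.6) the H3K27ac region was listed at 10 h alone, at percentile 10.6. Regions that held gained sites had median percentiles of 62.4, 67.7 and 63.0 in the fed, 10 h and 24 h lists, against 69.3, 77.1 and 71.6 for regions that held sites of all 3 lists.

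Of the acetylated gained sites, 714 were in all 3 H3K27ac lists. Another 336 were in the 10 h list alone, 99 in both fasted lists and not the fed one, 46 in the 24 h list alone, 87 in the fed and 10 h lists, 30 in the fed and 24 h lists and 16 in the fed list alone. These single patterns were not counted over all glucagon sites, so their order cannot be read as particular to the gained sites. The 10 h list is the longest of the 3, with 47777 regions. At GR, 21.4% of the gained sites were in the 10 h list and not the fed one, against 17.5% of all glucagon sites. Without GR these shares were 10.6% and 9.13%. After the 3 H3K27ac lists were cut to equal length by density, the shares at GR were 7.13% and 7.98%. Without GR they were then 6.53% and 5.90%. The higher share of the gained sites at GR was thus seen with whole lists and not with cut ones. For the 24 h list and not the fed one, whole lists gave 5.43% of the gained sites and 5.77% of all glucagon sites at GR, and 3.93% and 3.29% without. The 24 h shares of the gained sites were thus near those of all glucagon sites.

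Gained sites at GR were in any H3K27ac list at 34.7% (interval 31.2 to 38.5), against 72.4% of the sites in all 3 lists at GR (70.9 to 73.9) and 63.7% of all glucagon sites at GR. By state they were in H3K27ac regions of fed liver at 11.8% (76 of 645, interval 9.52 to 14.5), of 10 h fasted liver at 32.2% (28.8 to 36.0) and of 24 h fasted liver at 15.8% (13.2 to 18.8), against 45%, 61.6% and 48.9% of all glucagon sites at GR. Gained sites without GR stood at 27.5%, 36.7% and 28.1%. With the H3K27ac lists reduced to the 29917 densest regions each, the length of the fed list, the gained sites at GR stood at 11.8%, 17.8% (15.1 to 21.0) and 15.2% (12.6 to 18.2), so the 10 h value depends on the length of that list. In lists of that length, 32 gained sites at GR (4.96%) were acetylated at 24 h and not in fed liver and 10 (1.55%) the other way round. Over all glucagon sites at GR these shares were 5.26% and 2.39%, so the first was near that of the gained sites. Without GR, the gained sites gave 102 (3.64%) and 101 (3.60%), and all glucagon sites 3.02% and 3.47%. Sites in all 3 lists gave 193 (5.73%) and 89 (2.64%) at GR, and 541 (3.35%) and 612 (3.79%) without. The difference between feeding states rests on 1 list per state and was not tested.

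**Figure D5:**
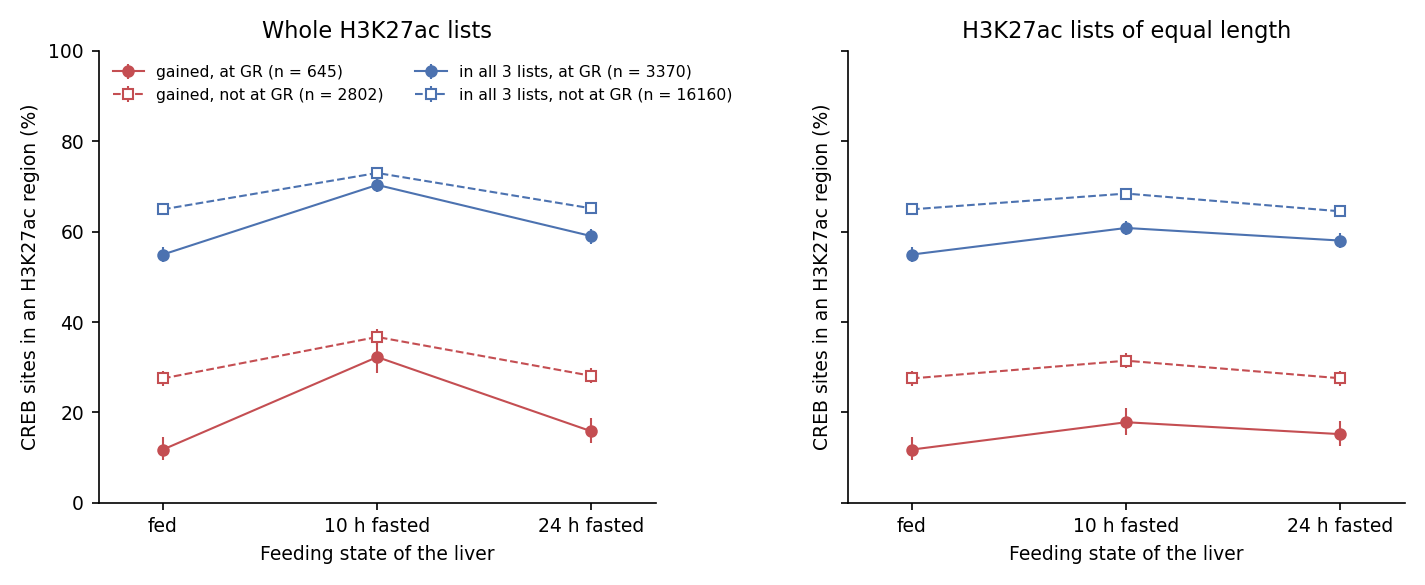
Percent of CREB sites in an H3K27ac region of fed, 10 h fasted and 24 h fasted liver, for gained sites (red) and sites in all 3 hepatocyte CREB lists (blue), at GR (filled, solid) or not (open, dashed), with 95% Wilson intervals, for whole H3K27ac lists (left) and lists of equal length (right). Gained sites at GR stand lowest, at 11.8%, 32.2% and 15.8% in whole lists and at 11.8%, 17.8% and 15.2% in lists of equal length.

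Liver CREB was listed at few gained sites, as at few sites of the glucagon list only. The fasted list met 113 gained sites (3.28%, interval 2.73 to 3.93) and the fed list 142 (4.12%, 3.51 to 4.84), against 17.4% and 21.1% of all glucagon sites. The sites in all 3 lists stood at 23.5% and 28.4%, and sites of the glucagon list only at 3.49% and 4.08%. Among the 205 gained sites with liver CREB, 50 were in both lists, 63 in the fasted list alone and 92 in the fed list alone. The liver CREB sites met were of middle density, with median percentiles of 48.7 in the fasted and 50.3 in the fed list, against 73.8 and 74.0 where the CREB site was in all 3 hepatocyte lists. In the densest 10% of the glucagon list, 7 of 53 gained sites (13.2%, interval 6.55 to 24.8) and 84.8% of the sites in all 3 lists (83.4 to 86.1) met a liver CREB site.

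Gained sites with liver CREB carried the other marks more often than those without. H3K27ac of any liver list was present at 71.7% of the 205 sites (interval 65.2 to 77.4) and at 36.4% of the other gained sites (34.8 to 38.1). GR was present at 30.7% (24.8 to 37.4) and 18.0% (16.7 to 19.3). The same contrast over all glucagon sites was not computed, so it cannot be read as particular to the gained sites. The third densest of them, after the chr13 and chr2 sites, was chr3:130314557-130315540, with a density of 58.5, a GR site of rank 1915 and a CREB site of fasted liver at percentile 69.8.

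Phospho-CREB of liver was listed at 72 gained sites (2.09%, interval 1.66 to 2.62), against 8.13% of the sites in all 3 lists (7.75 to 8.52) and 6.66% of all glucagon sites. The fasted list accounted for 42 (1.22%) and the fed list for 48 (1.39%), against 3.23% and 6.06% of all glucagon sites. GR overlapped 49 of the 72 sites (68.1%, interval 56.6 to 77.7), and liver CREB overlapped 41. The same shares over all glucagon sites at liver phospho-CREB were not computed, so these values cannot be read as particular to the gained sites. They were not dense, with a median percentile of 26.7 in the glucagon list. The densest after the chr13 site were chr4:49559884-49560677 (density 29.8), in both liver CREB lists, the fasted phospho-CREB list and all 3 H3K27ac lists, and chr5:22020580-22021317 (density 25.4), in both liver CREB lists and the fasted phospho-CREB list. The hepatocyte phospho-CREB lists were not used here, because no sample label could be matched to them. Just 2 gained sites (0.058%) were in all 8 other lists, and the share over all glucagon sites was not computed.

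Most gained sites stood alone, with 2238 (64.9%) having no other gained site within 50000 bp. Groups of 4 or more numbered 34 and held 149 sites. The largest group, of 8 sites, was chr8:112497041-112524381. GR sites overlapped 6 of them, H3K27ac regions 5 and liver CREB sites 4, and their densities were 6.59 to 17.6. However, 6 of the 8 shared 1 partner of 11302 bp, chr8:112513822-112525123, which also overlapped an untreated site, so that 1 broad region of the corticosterone list faced 6 separate glucagon sites. These 6 sites met only 2 GR sites, of 1759 and 3771 bp, ranked 1282 and 516, neither of which overlapped an untreated CREB site. They also met phospho-CREB regions of fasted liver at percentiles of 92.4 to 95.9.

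Other groups were more dispersed. The group chr10:98632347-98777617, of 6 gained sites, had no GR overlap and lay among 11 untreated sites, with partner percentiles of 57.6 to 92.2. The group chr1:93945304-93996604 held 5 gained sites, all the glucagon sites of the stretch, and no untreated site. It had GR at 4 of the 5, densities of 9.59 to 43.3 and partners at percentiles of 91.5 to 97.3. At chr8:87656305-87666192, all 4 gained sites of a group were at GR and in H3K27ac, with densities of 7.83 to 9.28. The groups named here were chosen after their values were seen, by size and by GR overlap.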

How the data were processed

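Per the file headers, the deposited lists hold each region's position, highest and average tag density (a signal), z-score and p-value. The deposited p-value and average density were not used. Each region's deposited z-score is the authors' enrichment score. Per the submitters' processing notes, CASAVA 1.8 and genome build mm9 were used. Names of the lists mention hotspots and pooled libraries for H3K27ac and pairs of libraries otherwise. Liver CREB and phospho-CREB had 3 samples per group, so their lists may not rest on all of them. The sources used here do not give the aligner, the caller's settings or how density was normalised. Densities were therefore ranked only within a list, as percentiles. For named sites the deposited densities of both hormone lists are also given, and their difference shows no change of binding. Of 13 lists, 11 were assigned to a group through library numbers. The other 2, with 8 value columns, fitted no sample label and were not used, nor were the 11 average density columns.

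Sites overlapped when at least 1 base was shared. Shares have 95% Wilson intervals. Without values per library or depths, no test was made. The 38 samples formed 15 groups, of which 11 had a list. Bins were 10 equal steps of density percentile in a list. Named regions were the 10 densest gained sites, the 5 with the best mean percentile, the 3 densest per overlap class and sites at the limits of the rule; groups of sites were picked after seeing their values. Sites, lists and named regions were chosen with earlier results of these data known. Alternatives were 6 planned and 4 added after seeing the data. Overlap counting was checked on simulated lists with known answers. No mm9 genome or annotation was used here, so neither genes nor sequences are given. Python 3.11.15, numpy 2.4.6, pandas 2.3.3 and matplotlib 3.10.9 were used.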

Additional observations from a re-analysis of the deposited data

How the results depend on the processing

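No paired analysis was possible because each group has 1 deposited list and no value per library, which also prevents leaving out a replicate. The number of gained sites and their shares at GR, in H3K27ac of 24 h fasted liver and at a liver CREB site were recomputed under the alternatives. Of these values 22 stayed within the interval of the value reported (for the number of sites, within 1.5 times) and 13 did not. With only the upper 50% of each list by density the gained sites numbered 1433, against 3447 with whole lists. Of the 1433, 34.4% were at GR, 19.6% in H3K27ac and 4.88% at liver CREB, against 18.7%, 25.8% and 5.95% with whole lists. The rule was applied anew to cut lists, the untreated list included, so such sets are not subsets of the 3447 sites. With the 3 hepatocyte CREB lists cut to equal length by density, 27.5% were at GR and 7.66% at liver CREB, and by z-score 20.7% were at GR, 32.7% in H3K27ac and 7.06% at liver CREB. When 50% of the shorter region had to be shared, H3K27ac gave 22.5%. Of the alternatives added after seeing the data, H3K27ac gave 18.9% with 500 bp windows around midpoints and 23.5% without sites whose partner overlaps an untreated site, and GR gave 20.4% without sites under the lowest z-score of the untreated list. Equal length of the H3K27ac lists was the last one added. The cause of these shifts was not tested. In every setting in which both classes were compared, the gained sites stood above the sites in all 3 lists for GR and below them for H3K27ac. For GR the classes differed most with the upper 50% of each list (34.4% against 19.8%, and 20.4% of all glucagon sites). They differed least with gaps of up to 500 bp allowed (19.4% against 18.7%, and 16.9% of all glucagon sites). With whole lists the GR intervals of both classes overlapped (17.4 to 20.0 and 16.7 to 17.8). All settings use the same lists, so they are not independent of each other. Of the other results, 17 values were shares that left their interval, and 27 values were counted as unchanged. The 27 include median density percentiles, which have no such interval. The median partner percentile, for example, went from 55.4 to 44.4 with the 3 hepatocyte CREB lists cut to equal length by z-score. The unknown depth limits every absence from a list, the untreated list above all.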
